A study of Homo sapiens with 36 samples.

Results

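The genes described here are the 26 whose transcript level fell over 24 h of induced stress signalling in wild-type (WT) cells and rose over the same 24 h in cells without ATF4. They were picked by measured values: counts were scaled to the library total (CPM), group means were taken, and the change L was log2 of the 24 h mean plus 1 over the 0 h mean plus 1. A member had L of -0.3 or less in WT, L of 0.3 or more in the knockout, and a WT 0 h mean of at least 3 CPM. Of 13335 genes at or above that level, 26 qualified, out of 57665 gene identifiers in the table. The opposite class, up in WT and down in the knockout, held 147 genes, while 3225 genes were past the lower limit and 3134 past the upper limit in both genotypes.

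The cells were U2OS, a human osteosarcoma line, and all of them carried Dmr-PERK, the eIF2α kinase domain of mouse PERK joined to a DmrB domain that pairs when its ligand AP20187 (the dimerizer) is added. The 2 genotypes compared were labelled WT and ATF4KO, each untreated at 0 h and at 2, 4, 8, 16 and 24 h with dimerizer at a single labelled dose, whose unit the labels leave out. Each of the 12 groups had 3 wells of a 24-well plate. How the ATF4 gene was disrupted, and whether either genotype was 1 clone, were not stated in the sources used here. The labels also do not say that the wells came from separate cultures, so the p-values measure only the spread between these wells, which may be technical.

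Phosphorylation of eIF2α by PERK is the first step of the integrated stress response. It lowers general translation and favours translation of a few messages, among them that of ATF4, a bZIP transcription factor that pairs with C/EBP family members and is known for switching on genes of amino acid supply, tRNA charging and redox balance. Its known direct targets are mostly activated genes.

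Library totals ran from 8608783 to 16265056 counts. ATF4 transcript was present in both genotypes, at 310.1, 325 and 322 CPM in the untreated WT wells and 262, 277 and 269 CPM in the untreated knockout wells, and at 24 h it was at 687, 705 and 714 CPM in WT and 726, 718 and 757 CPM in the knockout. The gene-level count therefore does not test whether the knockout allele makes protein. COL1A1, SPARC, VIM, RUNX2 and CDH2, expected in a mesenchymal bone-lineage line, were detected in every library, while COL1A2 did not exceed 1.12 CPM. PTPRC, CD3E, CDH5, PECAM1, KRT5 and ALB, markers of other cell types, did not exceed 1.34 CPM, and the epithelial genes EPCAM and CDH1 reached 5.48 and 8.43 CPM. In RNA from whole wells, fewer cells that express a gene and less RNA of that gene per cell cannot be told apart.

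The members were a mixed set by function. By the GENCODE 29 annotation, 21 were protein-coding genes, 2 were transcribed pseudogenes (MYH16 and DPY19L2P1), 1 was an antisense RNA (BOLA3-AS1) and 1 was a long intergenic RNA (CTC-436P18.3, named LINC02057 there), and AL034550.1 was not matched. Of 35 gene lists and 23 gene families drawn up for this work, 7 held a member each, and the other 19 members were in none. COL5A3 was in the extracellular matrix list, LDHA in glycolysis, ANLN in mitosis, SLC4A11 among solute carriers, RAB30 among RAB proteins, CCDC85B among coiled-coil genes and BOLA3-AS1 among named antisense RNAs. The lists were chosen with earlier results of these data known.

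RefSeq (GRCh38.p14) gave a window of 250 bases before to 50 after the gene start for 20 of the 26 members, 2 of them through an older symbol. The E box CACGTG, a palindrome read by MYC, USF and related factors, was in 5 of the 20 windows (25%), those of ANLN, EEPD1, FAM46B, LDHA and SMIM10, against 10.3% of 10063 windows of genes at or above the 3 CPM level and 7.43% of all 27305 windows. The cyclic AMP response element TGACGTCA, a palindrome bound by CREB and ATF family proteins, was in 2 windows (10%), LDHA and YWHAH, against 3.33% and 1.98%. The C/EBP-ATF element TGATGNAA, the composite element through which ATF4 is known to act, searched on both strands, was in 1 window (5%), that of ADAMTSL1, against 1.57% and 3.67%. Of 12 motifs searched, these are the 3 whose elements are printed below. Among the others, the GC box GGGCGG was in 9 windows (45%) against 70.6% of expressed genes, CCAAT in 8 (40%) against 36.5%, and TATAAA in 3 (15%) against 5.20%. The ETS element CCGGAAGT and the YY1 element AAGATGGCG were in none of the 20, against 9.13% and 4.07%. The E2F element TTTCCCGC was in 5% against 2.68%, the NRF1 element in none against 2.38%, the ER stress element in none against 0.139% and the cell cycle (CHR) element TTTGAA in 10% against 9.43%. No motif was in more than 9 of the 20 windows, and a match describes letters only.

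Windows of 4 members are shown because they hold a cyclic AMP response element or a C/EBP-ATF element, or, for ANLN, an E box in a gene described at length here. They are printed 5′ to 3′ on the gene's strand, with these elements in capitals. LDHA (chr11:18394313-18394612) holds 2 E boxes, with first bases at -185 and -87 from the start, and a cyclic AMP response element at -51. In ANLN (chr7:36389612-36389911) an E box lies at -103. YWHAH (chr22:31944285-31944584) has its cyclic AMP response element at -169, and ADAMTSL1 (chr9:18473903-18474202) has the C/EBP-ATF element at -38. In all 4 the RefSeq start lies inside a longer GENCODE 29 gene, which begins at 18394388 for LDHA, 36389806 for ANLN, 31944461 for YWHAH and 17906563 for ADAMTSL1. By those starts the LDHA E box at -87, its cyclic AMP response element and the ADAMTSL1 element lie inside the gene.
LDHA: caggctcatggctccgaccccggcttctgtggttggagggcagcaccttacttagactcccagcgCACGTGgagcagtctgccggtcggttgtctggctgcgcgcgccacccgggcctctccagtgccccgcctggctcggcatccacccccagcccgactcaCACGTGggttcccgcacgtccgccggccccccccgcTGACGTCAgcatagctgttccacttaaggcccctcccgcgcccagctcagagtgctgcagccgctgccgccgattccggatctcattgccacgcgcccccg
ANLN: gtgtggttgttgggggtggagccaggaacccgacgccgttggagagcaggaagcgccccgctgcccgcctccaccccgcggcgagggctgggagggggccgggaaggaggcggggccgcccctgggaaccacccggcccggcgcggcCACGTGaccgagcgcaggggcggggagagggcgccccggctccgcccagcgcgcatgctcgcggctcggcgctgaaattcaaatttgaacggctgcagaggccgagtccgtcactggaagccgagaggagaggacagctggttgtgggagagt
YWHAH: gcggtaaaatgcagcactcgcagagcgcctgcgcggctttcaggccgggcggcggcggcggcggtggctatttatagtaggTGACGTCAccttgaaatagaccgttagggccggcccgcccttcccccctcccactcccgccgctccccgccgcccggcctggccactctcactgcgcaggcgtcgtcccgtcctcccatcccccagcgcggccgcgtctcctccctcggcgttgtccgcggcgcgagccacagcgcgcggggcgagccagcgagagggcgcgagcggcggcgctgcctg
ADAMTSL1: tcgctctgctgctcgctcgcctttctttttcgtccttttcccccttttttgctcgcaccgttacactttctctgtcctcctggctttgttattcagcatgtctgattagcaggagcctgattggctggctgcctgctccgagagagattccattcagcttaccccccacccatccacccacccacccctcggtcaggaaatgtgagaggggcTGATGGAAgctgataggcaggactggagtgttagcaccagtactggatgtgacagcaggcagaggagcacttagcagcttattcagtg

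Before any dimerizer, the knockout cells already held less RNA of most members. At 0 h the knockout mean was below the WT mean for 22 of 26 members, with a median gap of -0.25 on the log2(CPM + 1) scale. Over all 13335 genes the median was 0.01, and 52.0% had the knockout mean above the WT mean. For 14 members all 3 knockout wells lay below all 3 WT wells, and for none did all 3 lie above; over all these genes the shares were 19.4% below and 22.0% above. The largest gaps at 0 h included those of RP11-603J24.9 (-2.19) and SPDYE2B (-0.81), whose values are uncertain. Others were FGF23 -0.85, BMPER -0.58, DPY19L2P1 -0.57, KANK1 -0.52, FAM46B -0.47 and COL5A3 -0.41, and those of LDHA and ANLN were both -0.35. The FGF23 wells at 0 h were uneven in WT, at 8.24, 4.15 and 3.44 CPM, against 1.89, 2.70 and 2.82 CPM in the knockout. RAB30, PRLR, MYH16 and ADAMTSL1, the 4 with the knockout mean above the WT mean, stood within 0.06 of level. SMIM10 and CDK5R1 were as close, with the knockout mean below. The 0 h wells were used by the selection, since a low knockout start favours a rise, so these values carry no test and support nothing.

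The 2 h wells were not used by the selection and held nearly the same gap. After 2 h of dimerizer, 11 of the 26 members were lower in the knockout by edgeR's quasi-likelihood test at an adjusted p under 0.05 (11.3% of the 19043 genes tested were lower), none was higher (10.2% of all), and 15 did not pass. The 11 were LDHA, ANLN, YWHAH, FAM46B, BMPER, FGF23, NEK10, KANK1, DPY19L2P1, SLC4A11 and RP11-603J24.9. In 13 members all 3 knockout wells lay below all 3 WT wells (17.6% of expressed genes) and in 2, MYH16 and ADAMTSL1, all lay above (19.9%). These are wells of the same cells on the same course, so they are separate measurements of a gap and not a separate experiment.

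**Figure D1:**
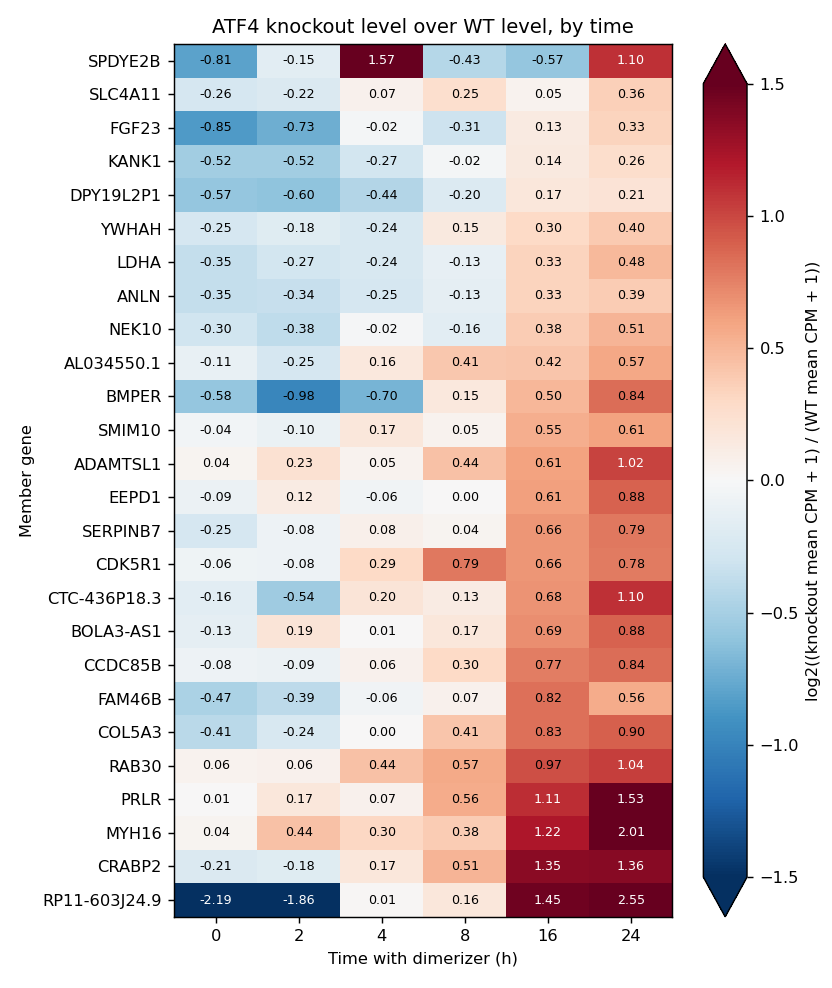
Heat map of the gap between genotypes for the 26 members (rows, ordered by the 16 h gap) at 6 times (columns, evenly spaced), as log2 of the knockout mean CPM + 1 over the WT mean CPM + 1 (3 wells each), blue where the knockout is lower and red where it is higher, with the color scale ending at 1.5 in both directions. The median gap goes from -0.25 at 0 h to 0.61 at 16 h and 0.82 at 24 h, and the 0 h and 24 h columns were used to choose the genes.

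Across the course the gap turned over. Its median was -0.20 at 2 h, 0.03 at 4 h, 0.15 at 8 h, 0.61 at 16 h and 0.82 at 24 h, while the median over all 13335 genes stayed between 0.01 and 0.05. The knockout mean was above the WT mean for 6 members at 2 h, 16 at 4 h, 19 at 8 h, 25 at 16 h and all 26 at 24 h. Over all 13335 genes the shares above were 52.0%, 57.4%, 54.4%, 58.3% and 58.4%. At 4 h the members were therefore near the whole, with a median gap of 0.03 against 0.04 over all these genes. In WT the median change from 0 h was 0.04 at 2 h, -0.21 at 4 h, -0.39 at 8 h, -0.32 at 16 h and -0.42 at 24 h, so most of the median fall was present by 8 h. In the knockout it was 0.07 at 2 h, 0.05 at 4 h, 0.09 at 8 h, 0.37 at 16 h and 0.43 at 24 h, so most of the median rise lay between 8 and 16 h.

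The tests at the intermediate times followed the same turn. At 4 h, 1 member, RAB30, was higher in the knockout (12.8% of all genes tested were) and 6 were lower (14.3%): LDHA, ANLN, YWHAH, BMPER, KANK1 and DPY19L2P1. At 8 h, 9 were higher (20.1%), namely CDK5R1, PRLR, RAB30, CRABP2, ADAMTSL1, COL5A3, CCDC85B, SLC4A11 and YWHAH, and 3 were lower (14.5%), namely LDHA, ANLN and DPY19L2P1. At 16 h, 20 were higher (21.5%), none was lower (14.7%) and 6 did not pass: FGF23, KANK1, DPY19L2P1, SLC4A11, SPDYE2B and RP11-603J24.9. The count of 3 lower at 8 h was 1 without WT 8 h well 2 or without knockout 8 h well 1, and the count of 1 higher at 4 h was 2 without knockout 4 h well 3. All 3 knockout wells lay above all 3 WT wells in 4 members at 4 h (28.1% of expressed genes), 10 at 8 h (29.4%), 20 at 16 h (32.8%) and 25 at 24 h (34.9%), where the rule used the wells and SPDYE2B was the exception. Below WT in all 3 wells were 6 members at 4 h (18.4%), 4 at 8 h (22.5%), none at 16 h (21.4%) and none at 24 h (21.8%).

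**Figure D2:**
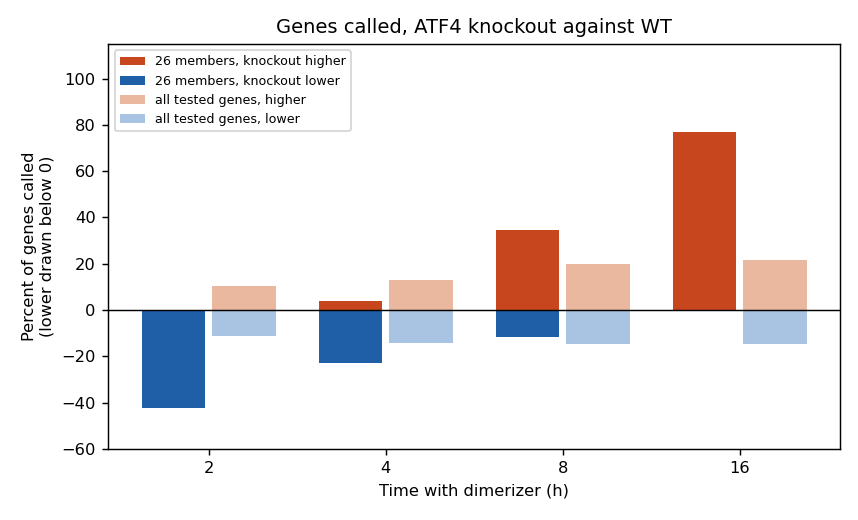
Percent of genes called by edgeR (adjusted p under 0.05) in knockout against WT at 2, 4, 8 and 16 h, with genes higher in the knockout drawn upward and genes lower drawn downward. Dark bars are the 26 members and pale bars all 19043 tested genes; the members go from 11 lower and 0 higher at 2 h to 0 lower and 20 higher at 16 h.

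Between 2 h and 16 h, times that the rule did not read, the members parted in the same way. In WT 17 of 26 fell (32.7% of all genes tested did) and 1 rose (32.2%). In the knockout 17 rose (31.8%) and 1 fell (32.0%). The difference between the 2 changes, tested in the same fit, was positive for 24 members (15.3%) and negative for none (9.86%), with a median of 0.84 in log2 against 0.05 over all tested genes. Only 9 members fell in WT and rose in the knockout by both tests: LDHA, ANLN, YWHAH, CCDC85B, CRABP2, RAB30, FAM46B, CDK5R1 and DPY19L2P1. Another 7 fell in WT with no call in the knockout (PRLR, SERPINB7, NEK10, EEPD1, SMIM10, BOLA3-AS1 and AL034550.1), and 7 rose in the knockout with no call in WT (COL5A3, BMPER, FGF23, KANK1, CTC-436P18.3, MYH16 and RP11-603J24.9). ADAMTSL1 fell in both genotypes, SLC4A11 rose in both, and SPDYE2B passed in neither. These are changes from 2 h and not from 0 h. The ADAMTSL1 change from 0 h was 0.49 in WT and 0.68 in the knockout at 2 h, and -0.47 and 0.09 at 16 h. For SLC4A11 it was -0.31 and -0.28 at 2 h, and 0.07 and 0.37 at 16 h.

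The count of 24 lay between 20 and 24 when each of the 12 wells was left out in turn, and 19 of the 24 kept their call in every such fit. It was 12 with limma on the deposited TPM, a table whose smallest value is 0.102292 in each column. The calls not made on TPM were those of ANLN, RAB30, PRLR, BMPER, KANK1, EEPD1, SERPINB7, MYH16, SLC4A11, BOLA3-AS1, AL034550.1 and RP11-603J24.9. On TPM 3 members were lower at 2 h, or 8 without the untreated knockout columns, and 5 were higher and 0 lower at 8 h, or 6 and 2 without those columns.

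**Figure D3:**
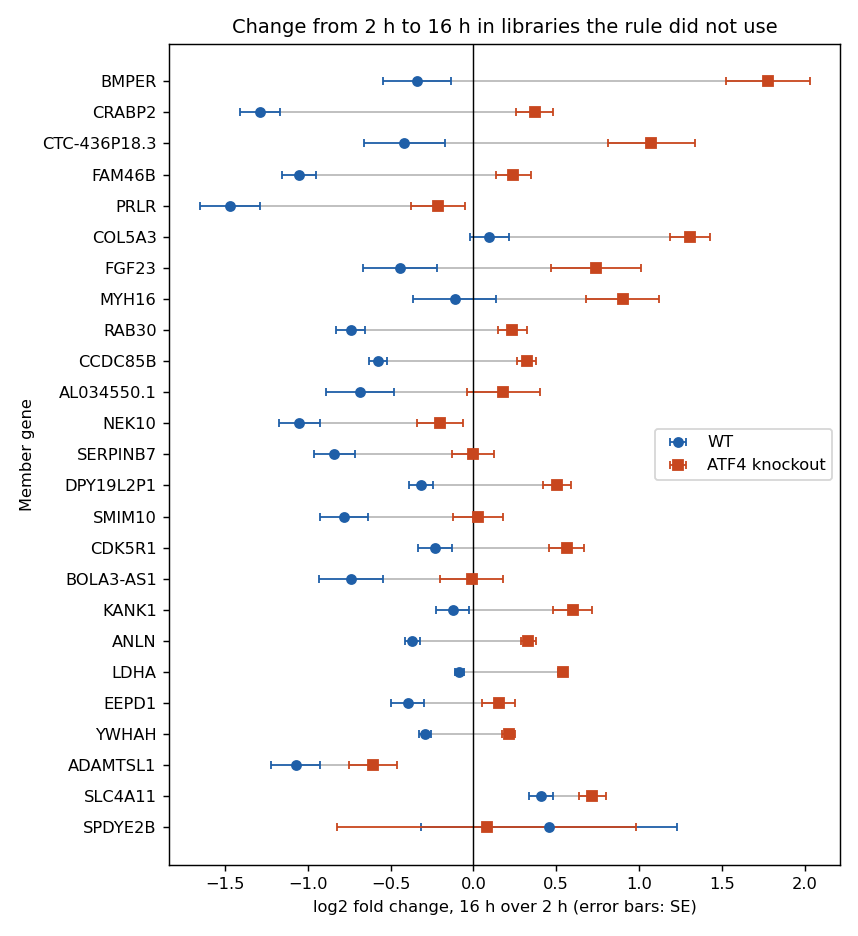
Log2 fold change from 2 h to 16 h in WT (circles) and in the ATF4 knockout (squares) for 25 members, with standard errors from edgeR, ordered by the difference between the 2 changes; RP11-603J24.9 is left out because its counts were 0 in all 3 knockout wells at 2 h. In 24 of the 25 genes the knockout point lies to the right of the WT point, and SPDYE2B, with a standard error of 1.19 on its difference, is the exception.

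LDHA, the muscle-type subunit of lactate dehydrogenase, turns pyruvate into lactate at the end of glycolysis. Untreated WT wells held 859, 812 and 819 CPM and untreated knockout wells 668, 654 and 626 CPM. By 24 h the WT wells had 636, 652 and 642 CPM and the knockout wells 892, 904 and 904 CPM. The rule read these 2 times, so their order is a description only. At the times it did not read, the knockout stayed at 626 to 661 CPM through 2, 4 and 8 h and then stood at 882, 903 and 904 CPM at 16 h. WT wells had 757, 773 and 761 CPM at 2 h and 742, 785 and 745 CPM at 4 h. They had 693, 711 and 732 CPM at 8 h and 689, 727 and 715 CPM at 16 h, all below the 4 h wells. In log2 the change from 2 h to 16 h was -0.09 ± 0.03 (SE) in WT and 0.54 ± 0.03 in the knockout, a difference of 0.63 ± 0.04 (adjusted p = 6.68e-17, edgeR, 3 wells a group). The promoter shown above with 2 E boxes and a cyclic AMP response element belongs to this gene.

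LDHA was the member of the glycolysis and pentose phosphate list that met the rule. Of the 34 tested genes of that list, 17 had a more positive change in the knockout and 5 a more negative one (15.3% and 9.86% of all tested genes), with a median difference of 0.17 against 0.05 over all. Over all 32 list genes at the 3 CPM level, the median L was -0.17 in WT and 0.14 in the knockout, against 0.02 in both genotypes over all genes. ENO1 and TPI1, enzymes of the lower and middle pathway, rose from 2 h to 16 h in both genotypes, ENO1 by 0.70 in WT and 0.95 in the knockout and TPI1 by 0.43 and 0.72. LDHB, the heart-type subunit, rose by 0.17 and 0.35. SLC16A1, the lactate and pyruvate carrier, had the reverse difference of -0.33. These 4 genes were picked after their values were seen.

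ANLN encodes anillin, a scaffold that binds actin, myosin and septins in the cleavage furrow of dividing cells. At 0 h it stood at 416, 411 and 419.9 CPM in WT and 349.98, 326 and 301 CPM in the knockout, and at 24 h at 322, 321 and 319.7 CPM in WT and 419, 429 and 410.4 CPM in the knockout. At 8 h both genotypes stood lower than at 0 h, the WT wells at 290.1, 295 and 292 CPM and the knockout wells at 265, 274 and 262 CPM. At 16 h the WT wells had 331, 321 and 338 CPM, and the knockout wells had 417, 413 and 419 CPM. From 2 h (WT 416, 460.4 and 416 CPM, knockout 328, 341 and 349 CPM) to 16 h the change was -0.37 ± 0.04 in WT and 0.33 ± 0.04 in the knockout, a difference of 0.70 ± 0.06 (edgeR adjusted p = 2.98e-12). With limma on TPM the difference was 0.69 (adjusted p = 0.0578), and without the untreated knockout columns it was called (adjusted p = 8.85e-07).

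Genes of the mitosis list were also lower in the knockout early and rose in it later. Of the 61 genes of the mitosis and G2/M list, all tested, 58 were lower in the knockout at 2 h and none higher, as ANLN was, with a median gap of -0.31; over all tested genes 11.3% were lower and the median was -0.01. From 2 h to 16 h, 43 rose and 6 fell in the knockout (31.8% and 32.0% of all tested genes), against 18 that rose and 22 that fell in WT (32.2% and 32.7%). The difference was positive for 44 (15.3%) and negative for none (9.86%), with a median of 0.30 against 0.05 over all. At 16 h the median gap of the list was -0.03, against 0.04 over all tested genes. Of the list, 6 genes were higher and 12 lower in the knockout (21.5% and 14.7% of all tested genes). ANLN was 0.34 ± 0.04 higher at that time (edgeR adjusted p = 2.39e-08). Over 24 h, 39 of the 61 passed the knockout limit of the rule and 8 the WT limit, and ANLN was the gene that passed both. Of all 13335 genes at the 3 CPM level, 4149 passed the knockout limit and 4020 the WT limit. CDC20, an activator of the anaphase-promoting complex, and CENPI, a centromere protein, had differences of 0.68 each, next to ANLN's 0.70, and MKI67, the proliferation marker, had 0.27; these 3 were picked after their values were seen.

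KANK1, a cortical scaffold that links focal adhesions to microtubules, began lower in the knockout, at 8.19, 8.45 and 7.92 CPM against 12.5, 12.4 and 11.5 CPM in WT. At 24 h it had 11.6, 10.8 and 9.63 CPM in the knockout and 8.68, 9.02 and 8.50 CPM in WT. The rule read both times, so the reversed order is a description only. At 16 h the wells overlapped and KANK1 was not called (0.14 ± 0.11, edgeR adjusted p = 0.324). From 2 h to 16 h it rose in the knockout by 0.60 ± 0.12, and its WT change was -0.12 ± 0.10, a difference of 0.72 ± 0.16 (edgeR adjusted p = 0.000345). With limma on TPM the difference was 0.12 (adjusted p = 0.862).

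YWHAH, the eta form of 14-3-3, binds phosphorylated serine and threonine motifs on many client proteins. Its WT wells went from 192, 183 and 181 CPM at 0 h to 123, 119 and 128 CPM at 8 h and 146, 154 and 139.5 CPM at 24 h. Its knockout wells went from 159, 159 and 147 CPM at 0 h to 136, 135 and 138 CPM at 8 h, and to 193, 197 and 189.5 CPM at 24 h. The wells of the 2 genotypes were apart at every time, with the knockout below at 0, 2 and 4 h and above at 8, 16 and 24 h. The change from 2 h to 16 h was -0.29 ± 0.04 in WT and 0.21 ± 0.04 in the knockout, and the difference was 0.50 ± 0.05 (edgeR adjusted p = 4.21e-10).

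CDK5R1 encodes p35, the activator of the kinase CDK5, and NEK10 is a kinase of the NIMA-related family. CDK5R1 had its lowest WT values at 8 h, with 8.13, 6.54 and 10.2 CPM against 14.0, 15.6 and 15.7 CPM in the knockout, and at 24 h stood at 11.9, 14.4 and 14.2 CPM in WT and 24.6, 23.3 and 23.7 CPM in the knockout. The 2 genotypes began together, at 16.7, 16.9 and 21.9 CPM and 17.4, 16.8 and 18.8 CPM. Its difference from 2 h to 16 h was 0.79 ± 0.15 (edgeR adjusted p = 4.44e-05). NEK10 fell in WT from 11.1, 11.4 and 8.66 CPM at 2 h to 4.95, 4.73 and 5.04 CPM at 16 h, and in the knockout had 6.35, 7.81 and 9.02 CPM and then 5.87, 6.94 and 7.23 CPM, a difference of 0.85 ± 0.19 (edgeR adjusted p = 0.000429). The NEK10 change from 0 h was 0.35 in WT and 0.27 in the knockout at 2 h, and -0.59 and 0.09 at 16 h.

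CCDC85B, a small coiled-coil protein, showed the pattern with only a small gap at the start. At 0 h the gap was -0.08, with all 3 knockout wells below all 3 WT wells. At 2 h CCDC85B had 71.9, 73.9 and 82.2 CPM in WT and 71.0, 71.7 and 71.3 CPM in the knockout. The knockout wells again lay below, and the gap was not called (edgeR adjusted p = 0.144). At 16 h the WT wells had 50.8, 54.4 and 46.7 CPM and the knockout wells 85.9, 89.2 and 85.7 CPM, and at 24 h WT was at 49.2, 49.5 and 49.0 CPM and the knockout at 87.1, 87.1 and 93.0 CPM. The 2 genotypes moved apart from close levels, WT by -0.58 ± 0.06 and the knockout by 0.32 ± 0.06 from 2 h to 16 h (difference 0.90 ± 0.08, edgeR adjusted p = 4.40e-12). Of the 118 tested coiled-coil genes, 20 had a positive difference and 5 a negative one (15.3% and 9.86% of all tested genes), with a median of 0.11.

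RAB30, a small GTPase of the Golgi, started level, at 20.8, 20.3 and 20.9 CPM in WT and 22.6, 20.7 and 21.3 CPM in the knockout. Both genotypes stood higher at 2 h, with 25.2, 32.6 and 27.2 CPM in WT and 28.1, 31.0 and 29.7 CPM in the knockout. At 8 h WT had 11.96, 13.2 and 11.6 CPM and the knockout 19.4, 18.5 and 18.0 CPM. The higher 2 h level was thus shared, and the wells were apart from 4 h on. At 16 h WT had 16.6, 17.4 and 16.7 CPM and the knockout 34.8, 35.4 and 31.8 CPM. RAB30 was the member that passed at 4 h with the knockout higher, by 0.40 ± 0.10 (edgeR adjusted p = 0.00262), and its gap was 1.01 ± 0.09 at 16 h (adjusted p = 1.18e-12). Its difference from 2 h to 16 h was 0.98 ± 0.12 (edgeR adjusted p = 2.68e-08), and 0.48 and not called with limma on TPM (adjusted p = 0.126). Of the 92 tested RAB and TBC1D genes, 13 had a positive difference and 8 a negative one (15.3% and 9.86% of all tested genes), with a median of 0.02.

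CRABP2, which carries retinoic acid to its nuclear receptors, fell in WT from 2 h to 16 h. Through 8 h its WT wells stayed between 11.3 and 14.3 CPM, and at 16 h they had 4.74, 4.36 and 5.66 CPM. The knockout wells had 9.98, 12.4 and 9.94 CPM at 2 h, 17.3, 17.5 and 17.5 CPM at 8 h, and 12.01, 13.6 and 16.5 CPM at 16 h. The knockout change from 2 h to 16 h was 0.37 ± 0.11 and the WT change -1.29 ± 0.12, a difference of 1.66 ± 0.16 (edgeR adjusted p = 7.53e-11). At 16 h it stood 1.47 ± 0.12 higher in the knockout (adjusted p = 2.35e-13), with no overlap of wells.

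FAM46B (now TENT5B) belongs to a family of non-canonical poly(A) polymerases. It was at 27.3, 25.4 and 24.4 CPM in WT and 19.7, 18.3 and 20.2 CPM in the knockout at 2 h, and at 13.5, 11.6 and 11.6 CPM and 20.8, 25.8 and 20.6 CPM at 16 h. The wells did not overlap at either time, with the order turned. Its difference was 1.29 ± 0.15 (edgeR adjusted p = 3.69e-09), mostly from the WT fall of -1.05 ± 0.10. The FAM46B change from 0 h was 0.30 in WT and 0.39 in the knockout at 2 h, and -0.71 and 0.59 at 16 h. EEPD1, a nuclease-family protein known for work at stalled replication forks, had 9.88, 10.6 and 10.1 CPM in WT and 11.5, 11.7 and 10.3 CPM in the knockout at 2 h, with overlap. Both genotypes stood higher at 2 h than at 0 h, when EEPD1 had 7.05, 7.12 and 7.37 CPM in WT and 6.51, 7.29 and 6.30 CPM in the knockout. Its WT change from 0 h was 0.45 at 2 h and 0.08 at 16 h, so WT at 16 h was not below its untreated level. At 16 h EEPD1 had 7.04, 7.81 and 8.05 CPM in WT and 11.5, 12.9 and 12.2 CPM in the knockout, a difference of 0.55 ± 0.14 (edgeR adjusted p = 0.0022). By limma on TPM it was 1.05 and not called (adjusted p = 0.192).

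**Figure D4:**
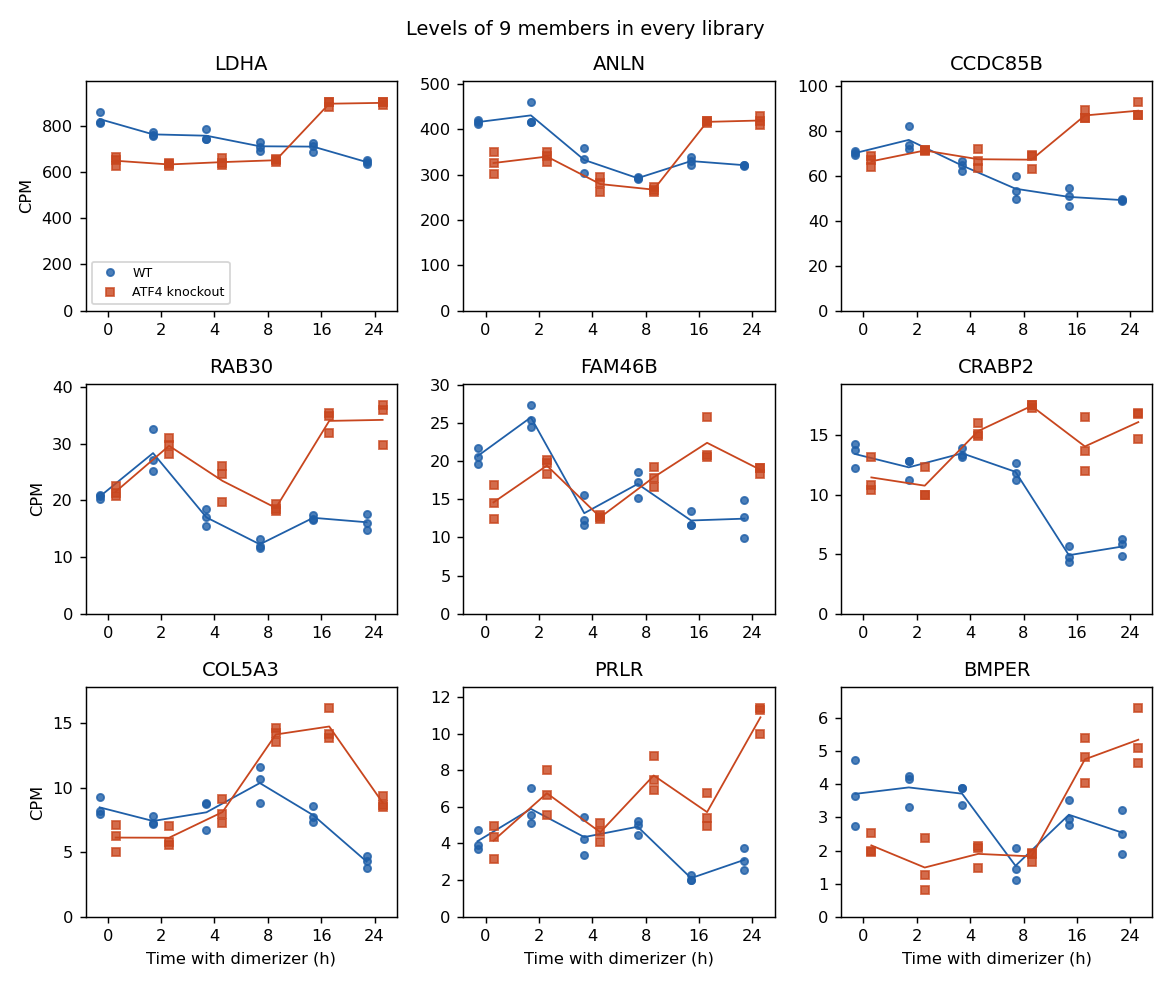
CPM of 9 members in every library (linear axes from 0, times evenly spaced; circles WT, squares ATF4 knockout, 3 wells per group, lines join group means). LDHA, ANLN, FAM46B, COL5A3 and BMPER start lower in the knockout. CCDC85B and RAB30 start close together, with the CCDC85B knockout wells just below the WT wells. In all 9 genes the 3 knockout wells lie above the 3 WT wells at 16 h and 24 h.

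COL5A3 encodes a chain of type V collagen. Its WT wells had 8.83, 11.6 and 10.7 CPM at 8 h and 3.78, 4.72 and 4.35 CPM at 24 h. Knockout wells went from 7.03, 5.84 and 5.53 CPM at 2 h to 13.9, 14.2 and 16.2 CPM at 16 h, and had 8.54, 8.66 and 9.37 CPM at 24 h. All 3 knockout wells were thus higher at 16 h than at 24 h. From 2 h to 16 h the knockout change was 1.31 ± 0.12 and the WT change 0.09 ± 0.12 (difference 1.21 ± 0.17, edgeR adjusted p = 3.12e-07, and 0.81 with limma on TPM, adjusted p = 0.000804). Of 72 tested matrix genes, 52 fell and 10 rose in WT (32.7% and 32.2% of all tested genes), and 54 fell and 9 rose in the knockout (32.0% and 31.8%). The difference was positive for 17 and negative for 12 (15.3% and 9.86%). The genes of 2 other type V chains had differences of -0.17 (COL5A1, which passed the test) and -0.42 (COL5A2, which did not).

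BMPER, a secreted protein that binds bone morphogenetic proteins, had 3.32, 4.25 and 4.16 CPM in WT and 2.38, 1.27 and 0.820 CPM in the knockout at 2 h. At 16 h it had 3.52, 2.78 and 2.95 CPM in WT and 5.41, 4.05 and 4.82 CPM in the knockout. The order of the genotypes was reversed with no overlap at either time, and the knockout change of 1.78 ± 0.25 gave a difference of 2.12 ± 0.33 (edgeR adjusted p = 2.19e-06). With limma on TPM the difference was 1.06 and not called (adjusted p = 0.192). Among the 49 tested genes of the TGF-beta and BMP list, 18 had a positive difference and 4 a negative one (15.3% and 9.86% of all tested genes), with a median of 0.10. INHBA, the activin A subunit, and TGFB3, a TGF-beta ligand, had differences of 1.08 and 0.90, and BMP6, a bone morphogenetic protein, had -1.98; they were picked after their values were seen.

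PRLR, the prolactin receptor, stood at 5.10, 7.02 and 5.54 CPM in WT and 5.56, 6.65 and 8.02 CPM in the knockout at 2 h. At 16 h it was at 2.01, 2.03 and 2.28 CPM in WT and 5.41, 4.96 and 6.77 CPM in the knockout. Only at 24 h, with 9.99, 11.3 and 11.4 CPM, did all knockout wells lie above those of 2 h. The PRLR change from 0 h was 0.43 in WT and 0.59 in the knockout at 2 h, and -0.72 and 0.38 at 16 h. The difference from 2 h to 16 h was 1.26 ± 0.25 (edgeR adjusted p = 0.000108), from a WT change of -1.47 ± 0.18. On TPM, with limma, it was 0.26 and not called (adjusted p = 0.793). FGF23, a hormone of phosphate balance made mainly by bone cells, was at 4.16, 3.87 and 4.29 CPM in WT and 2.15, 1.90 and 2.15 CPM in the knockout at 2 h, and at 3.16, 3.38 and 2.46 CPM and 2.91, 3.69 and 3.56 CPM at 16 h, where the wells overlapped. Its difference was 1.18 ± 0.35 (edgeR adjusted p = 0.00983), and 0.71 with limma on TPM (adjusted p = 0.0398).

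SERPINB7, of the serpin family of protease inhibitors, fell in WT by -0.84 ± 0.13 from 2 h to 16 h. WT held 5.60, 5.56 and 6.64 CPM at 16 h and the knockout 9.61, 9.59 and 10.7 CPM, and the difference was 0.84 ± 0.18 (edgeR adjusted p = 0.000362), not called with limma on TPM (0.75, adjusted p = 0.0727). ADAMTSL1, a matrix glycoprotein related to the ADAMTS proteases but without their catalytic part, fell in both genotypes, from 10.7, 11.4 and 10.4 CPM to 4.88, 5.03 and 5.35 CPM in WT and from 13.0, 12.6 and 13.1 CPM to 7.81, 9.25 and 7.81 CPM in the knockout. Its difference of 0.46 ± 0.21 did not pass (edgeR adjusted p = 0.105). The C/EBP-ATF element shown above was found in the window of this gene.

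SLC4A11, a membrane transporter of protons and ammonia related to the bicarbonate carriers, is another exception at the intermediate times. Its wells had 17.4, 17.5 and 20.3 CPM in WT and 15.2, 15.7 and 16.1 CPM in the knockout at 2 h, and 25.9, 23.4 and 23.3 CPM and 25.4, 24.3 and 25.5 CPM at 16 h. It rose in both genotypes, and the 16 h wells overlapped. At 24 h WT had 16.5, 19.3 and 19.6 CPM and the knockout 22.5, 25.2 and 24.2 CPM. Its difference from 2 h to 16 h was 0.31 ± 0.11 (edgeR adjusted p = 0.0295). That call was lost, with an adjusted p of up to 0.146, in 7 of the 12 fits that left out a well, namely WT 2 h well 3, WT 16 h well 2 or 3, knockout 2 h well 1 or 2, or knockout 16 h well 1 or 3. It was also lost with DESeq2, without the filter, in a fit of the compared groups alone and with limma on TPM. Over the 255 tested solute carriers, 38 differences were positive and 41 negative (15.3% and 9.86% of all tested genes).

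The remaining protein-coding member with a clear locus, SMIM10, encodes a small integral membrane protein. It had 6.28, 6.62 and 5.87 CPM in WT and 5.44, 5.77 and 6.15 CPM in the knockout at 2 h, and 3.88, 4.06 and 2.95 CPM against 5.47, 5.89 and 5.97 CPM at 16 h. The wells overlapped at 2 h and not at 16 h, and the difference was 0.81 ± 0.21 (edgeR adjusted p = 0.0029).

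Of the transcripts that are not protein-coding, DPY19L2P1 fell in WT and rose in the knockout from 2 h to 16 h, while MYH16 and CTC-436P18.3 rose in the knockout with no call in WT. DPY19L2P1, a pseudogene whose reads could be split with other DPY19L copies, went from 47.4, 51.3 and 50.2 CPM at 2 h to 41.2, 39.5 and 37.9 CPM at 16 h in WT, and from 34.1, 31.6 and 31.2 CPM to 44.1, 42.8 and 46.7 CPM in the knockout. The difference was 0.82 ± 0.11 (edgeR adjusted p = 7.56e-08), while the gap at 16 h, 0.17 ± 0.08, did not pass (edgeR adjusted p = 0.0697). Of 447 tested genes named as antisense RNAs, the family that holds BOLA3-AS1, 15 had a positive difference and 26 a negative one (15.3% and 9.86% of all tested genes), with a median of -0.04. MYH16, a pseudogene of a jaw muscle myosin, had 1.94, 2.68 and 2.97 CPM in WT and 3.51, 3.45 and 4.41 CPM in the knockout at 2 h. At 16 h MYH16 had 2.73, 2.55 and 1.84 CPM in WT and 6.74, 7.40 and 6.43 CPM in the knockout, and the difference was 1.01 ± 0.33 (edgeR adjusted p = 0.0205). By limma on TPM it was 1.17 and not called (adjusted p = 0.107). The edgeR call was lost, with an adjusted p of up to 0.0825, without WT 2 h well 2 or 3, WT 16 h well 3 or knockout 2 h well 2. CTC-436P18.3 went in the knockout from 2.26, 3.64 and 2.84 CPM to 6.65, 4.82 and 6.93 CPM, with 5.38, 3.86 and 4.78 CPM and then 2.74, 5.14 and 2.53 CPM in WT, and its difference was 1.49 ± 0.36 (edgeR adjusted p = 0.00135).

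BOLA3-AS1 and AL034550.1 had calls that did not hold when any of several wells was left out. Their differences stayed positive in every such fit, at 0.54 to 0.96 for BOLA3-AS1 and 0.66 to 1.11 for AL034550.1. BOLA3-AS1 is annotated as an antisense RNA, but in GENCODE 29 it overlaps no protein-coding gene on the opposite strand. The strand used in counting is not stated. BOLA3-AS1 had 3.42, 3.25 and 3.69 CPM in WT at 2 h and 1.51, 1.95 and 2.58 CPM at 16 h. Its knockout wells had 4.08, 3.16 and 5.02 CPM and then 3.80, 3.70 and 4.13 CPM. The difference of 0.73 ± 0.27 (edgeR adjusted p = 0.0417) lost its call, with an adjusted p of up to 0.171, in 9 of the 12 fits that left out a well (all but WT 2 h well 2, WT 16 h well 3 and knockout 2 h well 3), and also with RLE scaling, with DESeq2, without the filter and in a fit of the 4 groups compared. AL034550.1 had 8.22, 7.12 and 8.42 CPM in WT and 6.96, 5.61 and 6.89 CPM in the knockout at 2 h, and 6.45, 4.47 and 3.68 CPM against 8.25, 5.48 and 6.80 CPM at 16 h, where the wells overlapped. Its difference was 0.87 ± 0.30 (edgeR adjusted p = 0.028). It was lost, with an adjusted p of up to 0.172, without WT 2 h well 3, WT 16 h well 2 or 3, knockout 2 h well 2 or knockout 16 h well 1.

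Values for 2 members are uncertain. RP11-603J24.9 is a gene model on chromosome 12 (56101331 to 56109289, plus strand) that overlaps ERBB3 and PA2G4 on its own strand. It was listed at 1.16, 7.42 and 2.12 CPM in WT at 0 h, 7.62, 0.298 and 0 CPM at 2 h and 0, 0.215 and 0 CPM at 24 h, and in the knockout at 6.81, 7.26 and 6.86 CPM at 16 h after 0 CPM in all 3 wells at 2 h. No fold is given for this gene, and its call was lost without WT 2 h well 1 (edgeR adjusted p = 0.373). SPDYE2B has a near-identical copy, SPDYE2, and its wells swung from 0.212 to 8.65 CPM within the WT 2 h group and from 0 to 6.14 CPM within the knockout 16 h group. Its difference of -0.37 ± 1.19 did not pass (edgeR adjusted p = 0.874).

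Members close to the limits of the rule differ little from genes just beyond them. The WT limit was met by EEPD1, SLC4A11 and CTC-436P18.3 at L of -0.30, -0.31 and -0.31 and missed by ABCA3, SPATA33 and VGF at -0.29 each. The knockout limit was met by SLC4A11, YWHAH and SMIM10 at 0.31, 0.31 and 0.33 and missed by C19orf57, KCNC1 and JPH4 at 0.30, 0.30 and 0.29. At the level limit MYH16, RP11-603J24.9 and BOLA3-AS1 had 3.01, 3.57 and 3.69 CPM in untreated WT, and AC023283.1, MYOM3 and TYMSOS had 2.93, 2.78 and 2.77 CPM. The set was 31 genes with TMM scaling, 25 of the 26 among them, and 24 with RLE scaling, all 24 among the 26. With each 0 h or 24 h well left out in turn it held 24 to 36 genes, and 8 members were present every time: LDHA, ANLN, CCDC85B, CRABP2, COL5A3, SERPINB7, FGF23 and BOLA3-AS1. On the deposited TPM the rule gave 206 genes, 5 of the members among them.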

How the data were processed

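Total RNA from U2OS wells was sequenced from directional libraries, and 2 gene tables over the same 36 libraries were used. Per the labels and values, the first holds expected counts, which the authors deposited without scaling. The second holds TPM, as deposited by the authors, with a smallest value of 0.102292 in each column. Per the submitters' processing notes, FastQC 0.11.5, Salmon 0.9.1 and GRCh38 were used; the annotation release, strand setting and gene summing are not given in the sources used here.

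Members and gene lists were chosen with earlier results of these data known, and the members by values of these counts. Changes between 0 h and 24 h and the 0 h gap were therefore not tested. Contrasts compared only the 2, 4, 8 and 16 h groups, while all 36 libraries entered the filter, scaling and estimate of the spread. Expected counts were rounded, filtered with filterByExpr (19043 of 44932 genes with any count), scaled by TMM and fitted with 12 group means by the quasi-likelihood test of edgeR 4.0.16 (R 4.3.3), with Benjamini-Hochberg adjustment over all tested genes and a threshold of 0.05. All 26 members passed the filter. CPM are counts over the column total, with a pseudocount of 1 in log2 changes. Library totals, 8608783 to 16265056 counts, limit the precision of members near 3 CPM.

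The tests were repeated with DESeq2 1.42.0, with RLE scaling, without the filter, on the compared groups alone, with a block for the replicate number, with limma 3.58.1 on log2(TPM + 1), and leaving out 1 library at a time, and the rule also with a pseudocount of 0.5. The TPM fit without the 3 untreated knockout columns, and the rule without the third of them, were added after the data were seen, because none of the 3 untreated knockout count columns matched the TPM column of its own name best: the first matched TPM column 2, the second TPM column 1 and the third TPM column 2. The third had r = 0.497 with its own name, and the other 35 libraries 0.913 or more. Named genes followed a rule (highest CPM, largest differences, list members, neighbours of the limits); members outside it are named because all 26 are accounted for. Positions are from GENCODE 29 by identifier, 25 of 26 matched. Replicate pairs differed beyond sampling noise, with a chi-square per degree of freedom of 1.34 to 2.61.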

Additional observations from a re-analysis of the deposited data

Results flagged for a closer look

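The change from 2 h to 16 h differed between the genotypes by the test of the difference itself in 24 members, and this is what brings them here. On the log2 scale the differences of the 19 that kept the call whichever well was left out were LDHA 0.63, ANLN 0.70, CCDC85B 0.90, YWHAH 0.50 and CRABP2 1.66. FAM46B had 1.29, RAB30 0.98, DPY19L2P1 0.82 and COL5A3 1.21. BMPER had 2.12, CDK5R1 0.79, PRLR 1.26 and KANK1 0.72. SERPINB7 had 0.84, NEK10 0.85 and CTC-436P18.3 1.49. EEPD1 had 0.55, SMIM10 0.81 and FGF23 1.18. The calls of MYH16 at 1.01, AL034550.1 at 0.87, SLC4A11 at 0.31 and BOLA3-AS1 at 0.73 were each lost when single wells were left out. The remaining gene is RP11-603J24.9, for which no fold is given because its knockout wells at 2 h had no counts.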

How the results depend on the processing

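Of the 24 members with a called difference, none changed sign under any alternative run, 23 kept the call with RLE scaling, 22 with DESeq2, 22 without the filter, 22 in a fit of the compared groups alone and 24 with the replicate number as a block. With limma on TPM the count was 12, and 13 without the untreated knockout columns. The other limma counts on TPM were 3 lower at 2 h, 1 lower at 4 h, 5 higher and 0 lower at 8 h, and 0 higher in WT from 2 h to 16 h, also 0 without those columns. At 4 h, 2 were higher without those columns or without the filter. In WT from 2 h to 16 h, 2 rose without the filter. With each well left out in turn, the count of positive differences was 20 to 24, of members lower at 8 h 1 to 3, higher at 4 h 1 to 2 and rising in WT from 2 h to 16 h 1 to 2 (2 without WT 2 h well 1). The set was 206 genes on TPM and 233 without the third untreated knockout TPM column, and the cause was not tested. SPDYE2B, at -0.37 with all wells, ranged from -1.94 to 0.93, and turned to 0.26, 0.93 and 0.09 without WT 2 h well 2, knockout 2 h well 1 and knockout 16 h well 2. Same-number wells did not deviate together (correlations from -0.05 to 0.04), so the numbers were not read as pairs, and no count moved by over 1.5 times under the block. At the low CPM of BMPER, FGF23, MYH16, BOLA3-AS1 and CTC-436P18.3, depth limits the precision.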

Other observations

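Several members lay close together on chromosome 7, a feature seen after the members were known and not tested. Of 25 members with a position, 6 lay there (MYH16, SPDYE2B, BMPER, DPY19L2P1, EEPD1 and ANLN), where 4.85% of the 13288 positioned genes at or above 3 CPM lie. BMPER, DPY19L2P1, EEPD1 and ANLN sat within 2.55 Mb on 7p14 (chr7:33904308-36453791, GRCh38, GENCODE 29), a stretch with 9 genes at that level. The other 5 did not meet the rule: DPY19L1, a family member next to DPY19L2P1, had L of -0.75 in WT and -0.66 in the knockout, while HERPUD2, a relative of the stress gene HERPUD1, had 0.44 and 0.32. SEPT7, which encodes a septin that binds anillin, had -0.16 and 0.07. KIAA0895, which overlaps ANLN on the opposite strand, had 0.36 and 0.13, and RP11-379H18.1 had 0.22 and 0.48.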
